A study of Homo sapiens with 6 samples.

Results

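The OAS, MX and IFIT genes encode antiviral effectors of the interferon response, and they were followed here in Caki-1 cells, an established line of human clear cell renal carcinoma, with and without the tumor suppressor VHL. The 10 genes OAS1, OAS2, OAS3, OASL, MX1, MX2, IFIT1, IFIT2, IFIT3 and IFIT5 were taken by symbol, and each had 1 row among the 60708 genes of the deposited count table. RNA-seq was run on 3 samples of vector control cells (VC), which carried the lentiviral CRISPR vector without a VHL guide, and on 3 samples of VHL-KO cells, which received the vector with a guide against VHL. Both were Caki-1 cells, and per the study's methods transduced cells were selected with puromycin and VHL-KO cells were single clones screened by immunoblot, so a difference of the clone and of the genotype cannot be told apart. Labels do not say whether the replicates were separate cultures, and p-values therefore measure only the spread between these samples, which may be technical. The samples held between 22628246 and 34881739 reads counted on genes.

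OAS1, OAS2 and OAS3 are enzymes that sense double-stranded RNA and make 2′-5′-linked oligoadenylates. OASL is a relative without that enzyme activity that acts on RNA sensing, MX1 and MX2 are dynamin-like GTPases that block incoming viruses, and IFIT proteins bind foreign RNA or one another and limit its translation. All are classic targets of ISGF3, a transcription factor complex that forms below the interferon receptors, and many cells keep a low basal level of them without added interferon.

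The edited gene was read first as a check of the labels. VHL had 1454, 1124 and 1522 reads in VC replicates 1 to 3 and 929, 657 and 650 reads in VHL-KO replicates 1 to 3. The VHL-KO samples were lower without overlap (log2 fold change -0.33 with a standard error of 0.11; Benjamini-Hochberg adjusted p = 0.0109 by edgeR). Without VC replicate 1 the Benjamini-Hochberg adjusted p by edgeR was 0.0862 and without VHL-KO replicate 2 it was 0.0621, within 0.000292 to 0.0905 over all alternatives. The call was also lost with upper quartile factors (log2 fold change -0.22) and with offsets for GC content and length (-0.17). A gene on the opposite strand covers 23.5% of the exonic sequence of VHL. Of 9 targets of the hypoxia-inducible factors, which VHL holds down, CA9, VEGFA, SLC2A1, BNIP3, NDRG1, ANKRD37, PDK1 and ADM rose and EGLN3 fell. CA9 had 0, 0 and 2 reads in the VC samples and 288, 247 and 233 reads in the VHL-KO samples. Of 8 markers of kidney tubule and renal carcinoma cells, 7 were above the count filter, led by VIM, and PAX2 had 0 reads in all 6 samples. Of these 7, 3 were called higher and 0 lower, beside 28.5% and 31.2% of all genes tested. With the offsets 5 were called higher and 0 lower, and with library size alone 2 higher and 2 lower. The part of these markers in the results that follow was not tested. The leukocyte markers PTPRC, CD3E, CD2, MS4A1 and NKG7 had at most 1 read in any sample, while CD14, the most abundant of those 8 markers, had 58, 50 and 49 reads in VC and 110, 113 and 76 reads in VHL-KO samples. Summed over the 8, the leukocyte markers had 1.73, 1.72 and 1.32 CPM (counts per 1000000 reads) in VC and 4.38, 5.42 and 3.98 CPM in VHL-KO samples, and their part in the results that follow was not tested. Of 3 markers of endothelial cells, PECAM1 was the most abundant, with 1, 5 and 0 reads in VC and 14, 7 and 9 reads in VHL-KO samples, higher in the VHL-KO samples without overlap. Summed over the 3, they had 0.117, 0.168 and 0 CPM in VC and 0.711, 0.324 and 0.469 CPM in VHL-KO samples, and their part was not tested either. Of 4 fibroblast markers DCN and LUM had at most 2, while COL1A1 and PDGFRB were present and fell.

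Genes were tested by the quasi-likelihood F test of edgeR where any sample had at least 10 reads, which left 17401 genes, and were called changed at a Benjamini-Hochberg adjusted p under 0.05 over all of them. Of the 10 OAS, MX and IFIT genes, 9 passed this filter and MX2 did not. OAS1 and OASL were called higher in VHL-KO cells, beside 28.5% of all genes tested, and OAS3, IFIT1 and IFIT5 were called lower, beside 31.2%. The same 5 genes had no overlap between the 3 VC and the 3 VHL-KO samples, a pattern that 64.7% of all genes tested showed in one direction or the other. OAS2, MX1, IFIT2 and IFIT3 did not pass the threshold and their groups overlapped. The share of called genes was thus near that of all genes. The median log2 fold change of the 9 genes was 0.0088, against -0.01 over all genes tested. With library size alone in place of the TMM factors of edgeR, which scale samples on the premise that most genes do not change, the median over all genes moved to -0.20 and the share of called genes that were higher from 47.7% to 35.8%. That scaling called 21.6% of all genes tested higher and 38.7% lower. Upper quartile factors moved the other way, to a median of 0.10 with 55.0% of called genes higher, and called 32.8% of all genes higher and 26.8% lower. The 5 genes kept their direction and their calls under both scalings. In bulk RNA, fewer cells with a transcript and less transcript per cell cannot be told apart.

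**Figure D1:**
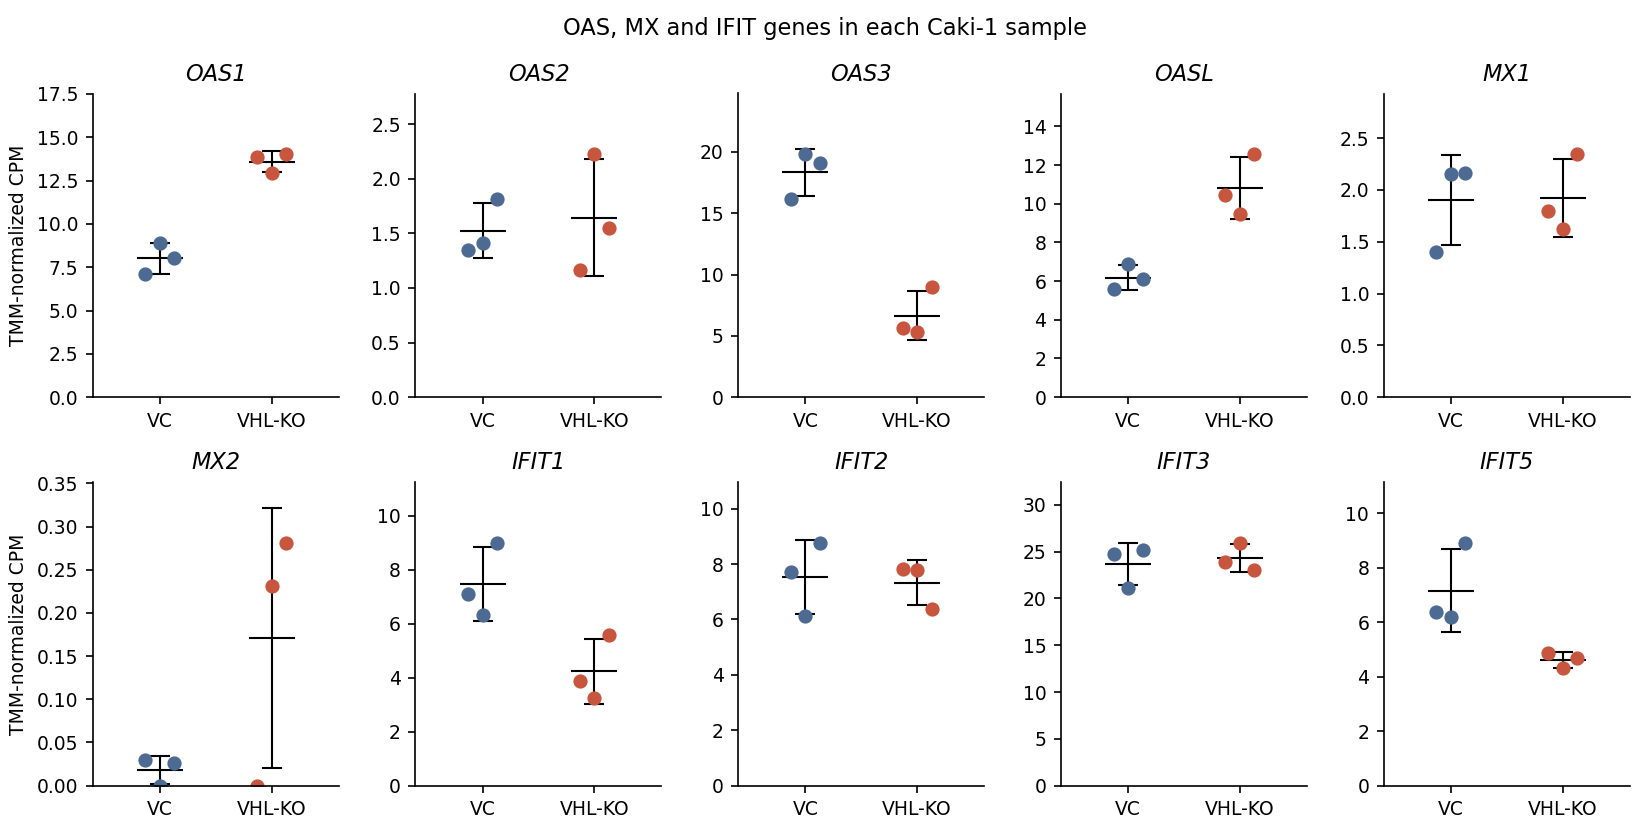
TMM-normalized CPM (vertical axes from 0) of each gene in the 3 VC (blue) and 3 VHL-KO (red) samples, with bars for the mean and SD of the 3 samples. VHL-KO samples lie above all VC samples for OAS1 and OASL and below them for OAS3, IFIT1 and IFIT5.

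OAS1, OAS3 and OAS2 lie side by side on the plus strand of chromosome 12 of GRCh38, OAS1 (ENSG00000089127.15) from 112905856 to 112933219, OAS3 (ENSG00000111331.14) from 112938051 to 112976460 and OAS2 (ENSG00000111335.14) from 112978395 to 113011723. A gap of 4.83 kb separates OAS1 from OAS3, and one of 1.94 kb separates OAS3 from OAS2. The neighbours OAS1 and OAS3 moved in opposite directions. To show what stands before these oppositely moving genes, the RefSeq promoter windows (GRCh38.p14, 250 bases before to 50 after a RefSeq start) were searched for the core of the interferon-stimulated response element, the ISGF3 binding motif, spelled GAAA, any 2 bases, GAAA. The OAS3 window held 2 matches, the first of them at position -143 from the RefSeq start at 112938474 (chr12:112938321-112938350, plus strand). The OAS1 window held none, but it held a repeat with 1 base between, GAAANGAAA, at position -17 from the RefSeq start at 112906962 (chr12:112906935-112906963, plus strand), a spacing that was added after the windows had been read. The OAS3 window held 1 such repeat as well, at position -148, which overlaps the core match shown. Both RefSeq starts, and so both stretches, lie inside the gene spans given above, which begin further upstream. Capitals mark the core in OAS3 and the repeat with 1 base between in OAS1.
OAS3: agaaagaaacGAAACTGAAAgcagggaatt
OAS1: cccttctgagGAAACGAAAccaacagcag

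OAS1 had 243, 264 and 306 reads in the VC samples and 370, 279 and 299 reads in the VHL-KO samples. Scaled by the TMM factors this was 8.02 ± 0.884 CPM in VC and 13.6 ± 0.587 CPM in VHL-KO cells (mean ± SD over 3 samples each), and the lowest VHL-KO sample, at 12.9 CPM, lay above the highest VC sample, at 8.88 CPM. OAS1 was 1.70-fold higher in VHL-KO cells (log2 fold change 0.76 with a standard error of 0.15; Benjamini-Hochberg adjusted p = 9.58e-05 by edgeR). All 3 VHL-KO samples shared this rise, and the spread within each group was small beside it.

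OAS3, the longest of the synthetases, had 553, 589 and 724 reads in VC and 151, 115 and 191 reads in VHL-KO samples. The level fell from 18.4 ± 1.91 CPM to 6.64 ± 2.01 CPM (mean ± SD, n = 3 each), and the highest VHL-KO sample was replicate 3 with 8.95 CPM, below the lowest VC sample with 16.2 CPM. This was the largest change among the 9 genes tested, 2.77-fold lower in VHL-KO cells (log2 fold change -1.47 with a standard error of 0.17; Benjamini-Hochberg adjusted p = 8.49e-08 by edgeR).

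OAS2, the third synthetase of the locus, was low, with 46, 42 and 69 reads in VC and 31, 48 and 33 reads in VHL-KO samples. The VHL-KO samples held both the lowest value, 1.16 CPM, and the highest, 2.22 CPM, so that they spanned the VC samples. The log2 fold change of 0.09 had a standard error of 0.30 and did not pass the test.

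OASL (ENSG00000135114.13) lies apart from the cluster on the minus strand of chromosome 12, from 121017763 to 121039246. It had 191, 204 and 232 reads in VC and 279, 204 and 268 reads in VHL-KO samples, or 6.19 ± 0.639 and 10.8 ± 1.59 CPM (mean ± SD, n = 3 each). VC and VHL-KO replicate 2 had the same raw count, but VHL-KO replicate 2 was the shallower library, and its 9.45 CPM exceeded the 6.86 CPM of the highest VC sample. OASL was 1.75-fold higher in VHL-KO cells (log2 fold change 0.81 with a standard error of 0.16; Benjamini-Hochberg adjusted p = 0.000165 by edgeR).

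The shift between OAS3 and OAS1 was also read as ratios of raw counts inside each library. Such a ratio needs no scaling but shows a relative change only, and it keeps any dependence of a library on GC content. The direction of each gene rests on the scaling, and the raw counts of OAS1 overlapped between the groups. The ratio of OAS3 to OAS1 reads was 2.28, 2.23 and 2.37 in the VC samples and 0.408, 0.412 and 0.639 in the VHL-KO samples. More reads fell on OAS3 than on OAS1 in each VC library and fewer in each VHL-KO library. The ratio of OASL to OAS1 reads, by contrast, was 0.786, 0.773 and 0.758 in the VC and 0.754, 0.731 and 0.896 in the VHL-KO samples, and these values overlapped. Summed over the family, the OAS genes had 30.2, 37.0 and 35.0 CPM in VC and 31.1, 29.9 and 37.1 CPM in VHL-KO samples. The sums overlapped, while the part of them that came from OAS3 was between 53.5% and 54.4% in VC and between 17.8% and 24.1% in VHL-KO samples.

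**Figure D2:**
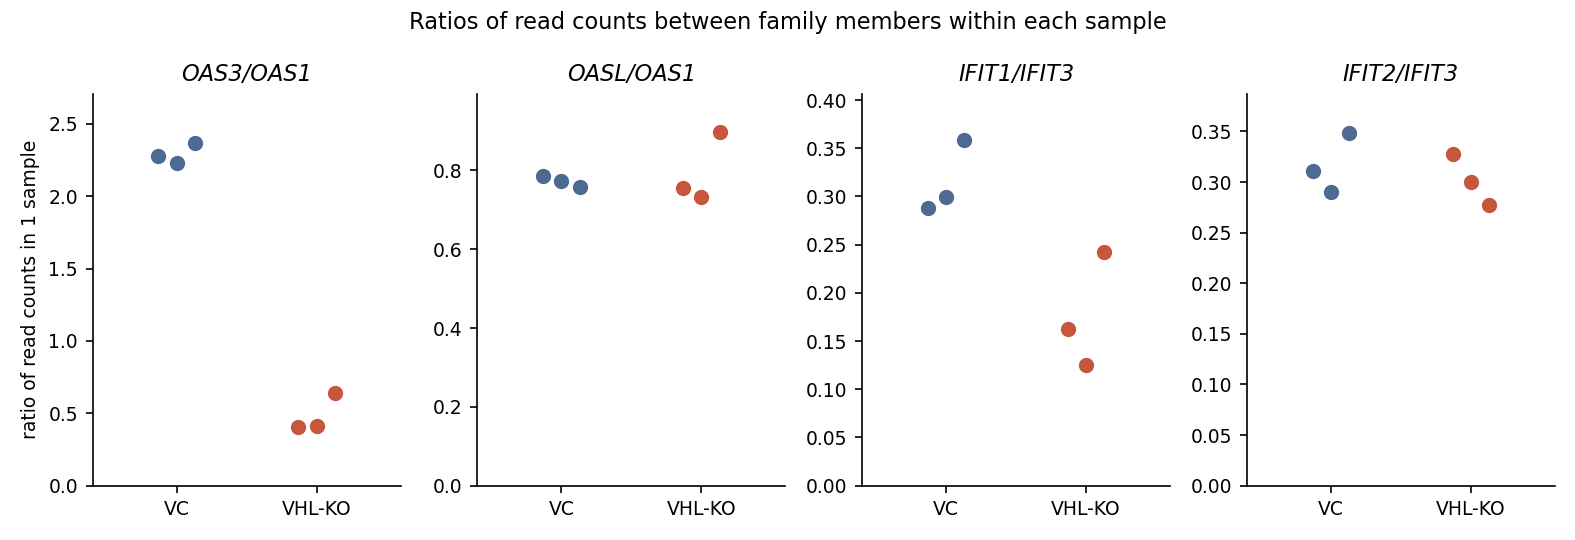
Ratio of the read counts of a pair of genes in 1 sample (vertical axes from 0) for the 3 VC (blue) and 3 VHL-KO (red) samples. The ratio needs no scaling between libraries but keeps any dependence of a library on GC content. The groups stand apart for OAS3/OAS1, 2.23 to 2.37 against 0.408 to 0.639, and for IFIT1/IFIT3, and overlap for OASL/OAS1 and IFIT2/IFIT3.

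MX2 and MX1 adjoin on the plus strand of chromosome 21, MX2 (ENSG00000183486.14) from 41361999 to 41409393 and MX1 (ENSG00000157601.15) from 41420020 to 41470071. MX1, whose product acts in the cytoplasm against many RNA viruses, had 48, 64 and 82 reads in VC and 48, 35 and 50 reads in VHL-KO samples. Its level was 1.91 ± 0.434 CPM in VC and 1.92 ± 0.377 CPM in VHL-KO cells (mean ± SD over 3 samples each). The groups overlapped, although VC replicate 1 was the lowest sample at 1.41 CPM and VHL-KO replicate 3 the highest at 2.34 CPM, and the log2 fold change was 0.0088 with a standard error of 0.27. Of its exonic bases, 5.55% overlap another gene on the opposite strand, and the strand setting of the counting was not given in the sources used here.

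MX2, whose product acts at the nuclear pore, had 1, 0 and 1 reads in the VC samples and 0, 5 and 6 reads in the VHL-KO samples. A library with 0 reads could hold up to 3, which was 0.101 CPM in VC replicate 2 and 0.112 CPM in VHL-KO replicate 1, and these limits cover counting error only. The 11 reads of VHL-KO against 2 reads of VC gave a ratio of 8.04 after scaling, with an exact 95% interval of 1.76 to 74.7 that also covers counting error only. Since VHL-KO replicate 1 had no read, the groups overlapped. Tested without a filter beyond 1 count, MX2 did not pass the threshold (log2 fold change 2.83 with a standard error of 1.49; Benjamini-Hochberg adjusted p = 0.136 by edgeR).

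The IFIT genes form a cluster on the plus strand of chromosome 10, with IFIT2 (ENSG00000119922.11) from 89283694 to 89309271, IFIT3 (ENSG00000119917.15) from 89327307 to 89377473, IFIT1 (ENSG00000185745.10) from 89392546 to 89406487 and IFIT5 (ENSG00000152778.10) from 89414568 to 89421605. With TMM factors IFIT1 and IFIT5, which adjoin, were lower in VHL-KO cells, and IFIT2 and IFIT3, which also adjoin, did not pass the test. A difference between these pairs was not tested. The call of IFIT5 was lost without VC replicate 3 (log2 fold change -0.43). It was also lost with offsets for GC content and length (-0.11), under which IFIT3 was called higher. The response element core was present in the windows of IFIT1 (2 matches), IFIT3 (2 in each of 2 windows) and IFIT5 (3 matches), all of them on the TTTC strand. One match of each is shown, so that the genes that fell and the one that did not can be set side by side, at positions -116 in IFIT1 (chr10:89392497-89392526), -45 in IFIT5 (chr10:89414513-89414542) and -51 in the second window of IFIT3 (chr10:89332468-89332497), all on the plus strand and counted from RefSeq starts at 89392623, 89414568 and 89332529. The RefSeq starts of IFIT1 and IFIT3 lie inside the gene spans given above, as does the stretch of IFIT3, while the stretch of IFIT1 ends before its span. Capitals mark the core.
IFIT1: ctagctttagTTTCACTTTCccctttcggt
IFIT5: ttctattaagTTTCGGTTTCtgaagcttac
IFIT3: gttccatcagTTTCACTTTCctttcccctt

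IFIT1, which binds RNA caps that lack a methyl mark, had 243, 188 and 342 reads in VC and 104, 70 and 119 reads in VHL-KO samples. The CPM fell from 7.48 ± 1.38 to 4.24 ± 1.21 (mean ± SD, n = 3 each). The groups came close, with 5.58 CPM in VHL-KO replicate 3 and 6.32 CPM in VC replicate 2, but did not overlap. IFIT1 was 1.77-fold lower in VHL-KO cells (log2 fold change -0.83 with a standard error of 0.20; Benjamini-Hochberg adjusted p = 0.00114 by edgeR).

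IFIT5, which binds RNA with a 5′ phosphate end, had 218, 184 and 339 reads in VC and 130, 93 and 100 reads in VHL-KO samples. In CPM this was 7.17 ± 1.53 in VC and 4.62 ± 0.284 in VHL-KO cells (mean ± SD over 3 samples each), with VC replicate 3 high at 8.93 CPM and the other 5 samples between 4.31 and 6.38 CPM. It was 1.55-fold lower in VHL-KO cells (log2 fold change -0.63 with a standard error of 0.19; Benjamini-Hochberg adjusted p = 0.00491 by edgeR). This call rested on VC replicate 3, without which the log2 fold change was -0.43 and the Benjamini-Hochberg adjusted p by edgeR 0.0655, within 0.000894 to 0.601 over all alternatives.

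IFIT2 and IFIT3, partners that bind each other and IFIT1, did not pass the threshold with TMM factors. IFIT2 had 263, 182 and 333 reads in VC and 209, 168 and 136 reads in VHL-KO samples, or 7.53 ± 1.33 and 7.33 ± 0.823 CPM (mean ± SD, n = 3 each). IFIT3 had 845, 628 and 955 reads in VC and 638, 560 and 491 reads in VHL-KO samples, or 23.7 ± 2.21 and 24.3 ± 1.50 CPM. For both genes the VHL-KO samples lay inside or across the range of the VC samples, and the log2 fold changes were -0.04 (standard error 0.17) and 0.04 (standard error 0.12). Of the exonic bases of IFIT2, 12.1% overlap another gene on the same strand, so that reads there could be lost or shared.

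Ratios inside each library gave the same order, but they keep any dependence of a library on GC content, which is described below. The ratio of IFIT1 to IFIT3 reads was 0.288, 0.299 and 0.358 in the VC and 0.163, 0.125 and 0.242 in the VHL-KO samples, without overlap. That of IFIT5 to IFIT3 reads was 0.258, 0.293 and 0.355 in the VC and 0.204, 0.166 and 0.204 in the VHL-KO samples, again without overlap. The ratio of IFIT2 to IFIT3 reads ran from 0.290 to 0.349 in VC and from 0.277 to 0.328 in VHL-KO samples, and overlapped.

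Fold changes between these groups moved with the base composition of the transcripts, and the 9 genes differ in it. The median log2 fold change over all genes tested was -0.43 among the 4340 genes with the lowest GC content, 41.9% at most, and 0.42 among the 4339 with the highest. The GC content of the longest transcript was 37.5% for IFIT5, 40.7% for OAS1, 41.8% for MX1, 42.2% for IFIT1, 42.8% for IFIT2, 43.1% for IFIT3, 46.6% for OAS2, 51.2% for OAS3 and 51.4% for OASL. When each library's dependence on GC content and gene length was fitted and taken out as an offset, 28.7% of all genes tested were called higher and 31.0% lower, and of the 9 genes OAS1, OASL and IFIT3 were called higher and OAS3 and IFIT1 lower. The log2 fold change of OAS3 was -1.48 and that of OASL 0.82, close to the values without offsets, while OAS1 moved from 0.76 to 1.16. The offsets took GC content from the longest transcript and length from the union of exons. For OAS1 that union has 13021 bases, against 1631 in the canonical transcript, and for MX1 17984 against 2776. The parts of GC content and of length in these moves were not tested. IFIT1 moved to -0.46 and stayed past the threshold (Benjamini-Hochberg adjusted p = 0.0282 by edgeR, within 4.42e-05 to 0.0282 over all alternatives). IFIT5 moved to -0.11 and lost its call (Benjamini-Hochberg adjusted p = 0.559 by edgeR). IFIT3 moved to 0.35 and gained one (Benjamini-Hochberg adjusted p = 0.0016 by edgeR, within 0.00095 to 0.983 over all alternatives). MX1 moved to 0.36, IFIT2 to 0.29 and OAS2 to 0.22, none of them past the threshold. The offsets also remove any biological change that follows GC content, and what gave the trend was not tested. The median of the 9 genes was 0.29 with offsets, against -0.0096 over all genes tested.

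**Figure D3:**
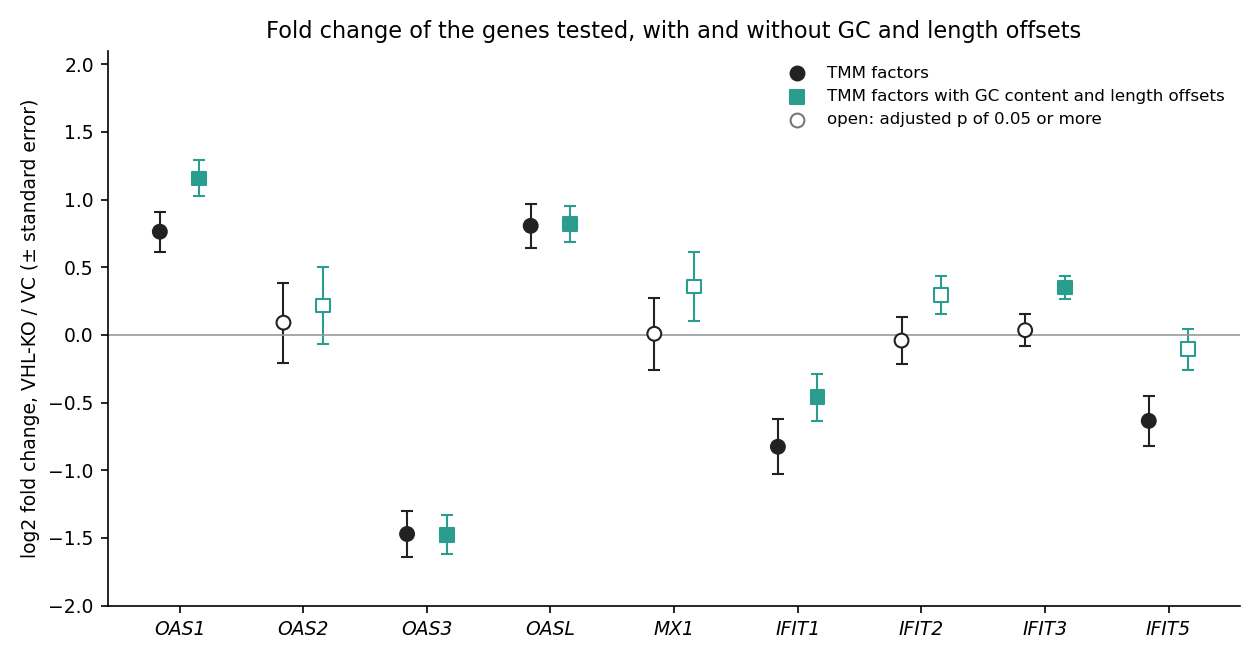
Log2 fold change of VHL-KO over VC (vertical axis, ± standard error) for the 9 genes tested, with TMM factors (circles) and with GC content and length offsets added (squares), filled where the adjusted p was under 0.05. OAS1, OAS3, OASL and IFIT1 are filled under both, IFIT5 under TMM factors alone and IFIT3 with offsets alone.

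Levels were compared between genes as CPM per kb of the union of a gene's exons. In VC cells IFIT3 stood first with 4.67 ± 0.436 CPM per kb (mean ± SD, n = 3). IFIT2, IFIT5 and IFIT1 followed at 1.74, 1.64 and 1.62 CPM per kb, with overlapping samples. OAS3 and OASL came next at 1.02 and 0.979 CPM per kb, also with overlap, and OAS1 stood below them at 0.616 CPM per kb. OAS2 and MX1 were low and overlapped, at 0.136 and 0.106 CPM per kb, and MX2 was last at 0.0013 CPM per kb. In VHL-KO cells IFIT3 was again first with 4.79 ± 0.297 CPM per kb, OASL rose to the second place at 1.71 CPM per kb beside IFIT2 at 1.69 CPM per kb, and OAS3 dropped to the seventh at 0.368 CPM per kb. Annotated exons of OAS1 cover 13021 bases, but its canonical transcript has 1631 bases. Per kb of the canonical transcript, a scale added after the data were seen, OAS1 was second in both groups with 4.92 CPM per kb in VC and 8.34 CPM per kb in VHL-KO cells, and IFIT3 stayed first with 9.90 and 10.2 CPM per kb.

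Promoter windows were given for 6 of the 10 genes, 9 windows in all, in OAS1, OAS3, MX1, IFIT1, IFIT3 and IFIT5. On either strand, 7 of these windows held the response element core, including 2 of the 3 MX1 windows, where 3.57% of the 35116 windows of the same length did. The repeat with 1 base between was in 5 of the 9 windows and in 3.12% of all windows, and matches of both kinds overlap one another in OAS3, IFIT3 and MX1. The hypoxia response core ACGTG was in none of the 9 windows, against 21.4% of all windows. A match describes the letters alone.

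The interferon pathway around these genes was read from lists. Among 21 interferon ligands, 17 had 0 reads in all 6 samples, IFNB1 among them, and IFNE alone passed the filter. IFNE had 13, 16 and 22 reads in VC and 32, 12 and 36 reads in VHL-KO samples, a rise past the threshold (log2 fold change 1.19) with overlapping groups. The call was lost when VC replicate 1, or in VHL-KO cells replicate 1 or replicate 3, was left out, at log2 fold changes of 1.03, 1.17 and 0.83 (Benjamini-Hochberg adjusted p 0.0784, 0.05 and 0.138 by edgeR, within 0.00291 to 0.138), and with library size alone, at 1.00. Between the receptors and ISGF3, changed genes were found as well. STAT2, a subunit of the complex that drives OAS, MX and IFIT genes, had 1914, 1704 and 2235 reads in VC and 2037, 1771 and 1911 reads in VHL-KO samples, a log2 fold change of 0.52. IRF9, its DNA-binding subunit, had only 16, 7 and 16 reads in VC and 33, 22 and 17 reads in VHL-KO samples, a log2 fold change of 1.42. IFNAR2 rose by 0.97, IL10RB by 0.98 and IFNLR1, with at most 12 reads, by 2.73 on the log2 scale, and JAK1 fell by 0.55. The call of IFNLR1 was lost when VC replicate 1, VC replicate 3 or VHL-KO replicate 2 was left out, at 2.17, 2.41 and 2.31, and that of IL10RB when VC replicate 2, VC replicate 3 or VHL-KO replicate 3 was, at 0.90, 0.93 and 0.82, or with library size alone, at 0.79. Of 5 negative regulators SOCS1 rose, with a log2 fold change of 1.11 that was 0.40 and no longer past the threshold with the GC content and length offsets, under which 1 other of the 5 was called higher and 1 lower.

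Some, not all, of the genes listed as acting around the products of the OAS enzymes fell. PDE12 and AKAP7, which degrade these oligoadenylates, fell by 1.32 and 1.73 on the log2 scale. ABCE1, a ribosome recycling factor listed with them, fell by 1.72 on the same scale. These 3 falls held with the GC content and length offsets, at log2 fold changes of -0.92 for PDE12, -1.31 for AKAP7 and -1.18 for ABCE1.

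Among 38 other interferon effectors, 33 were tested, 8 rose and 8 fell, beside 28.5% and 31.2% of all genes tested, so that the shares were near those of all genes. Their median log2 fold change was -0.15, against -0.01 over all genes tested. With library size alone 5 rose and 16 fell, beside 21.6% and 38.7% of all genes, with upper quartile factors 12 rose and 8 fell, beside 32.8% and 26.8%, and with the offsets 9 rose and 7 fell, beside 28.7% and 31.0%. Only 4 of the 8 rises and 4 of the 8 falls were among those called with the offsets. ISG15, singled out after its values were seen, was at 0.29 with no call and without overlap between the groups, was called higher in 6 alternatives, at 0.30 to 0.42, and was called lower with the offsets, at -0.52, and with the offsets and the block. Among the genes past the threshold, the largest rises without overlap between the groups were those of RTP4 (log2 fold change 2.41), IFITM2 (1.00), LGALS3BP (0.95), ISG20 (0.92) and IFI6 (0.91). IFITM2 lost its call when VC replicate 3 or VHL-KO replicate 3 was left out, at log2 fold changes of 0.91 and 0.68, and with library size alone, at 0.81, or the offsets, at 0.54. IFI6 lost its call with the offsets, at 0.33 (Benjamini-Hochberg adjusted p = 0.0503 by edgeR), and kept it with the offsets and the replicate block. The largest falls by the same rule were those of PLSCR1 (-1.51), IFI44L (-1.39), EIF2AK2 (-0.92), TRIM22 (-0.75) and DDX60L (-0.71). With the offsets PLSCR1 was at -0.99, IFI44L at -0.89, EIF2AK2 at -0.45 and LGALS3BP at 0.58, all still past the threshold. TRIM22 and DDX60L were no longer past the threshold with the offsets.

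**Figure D4:**
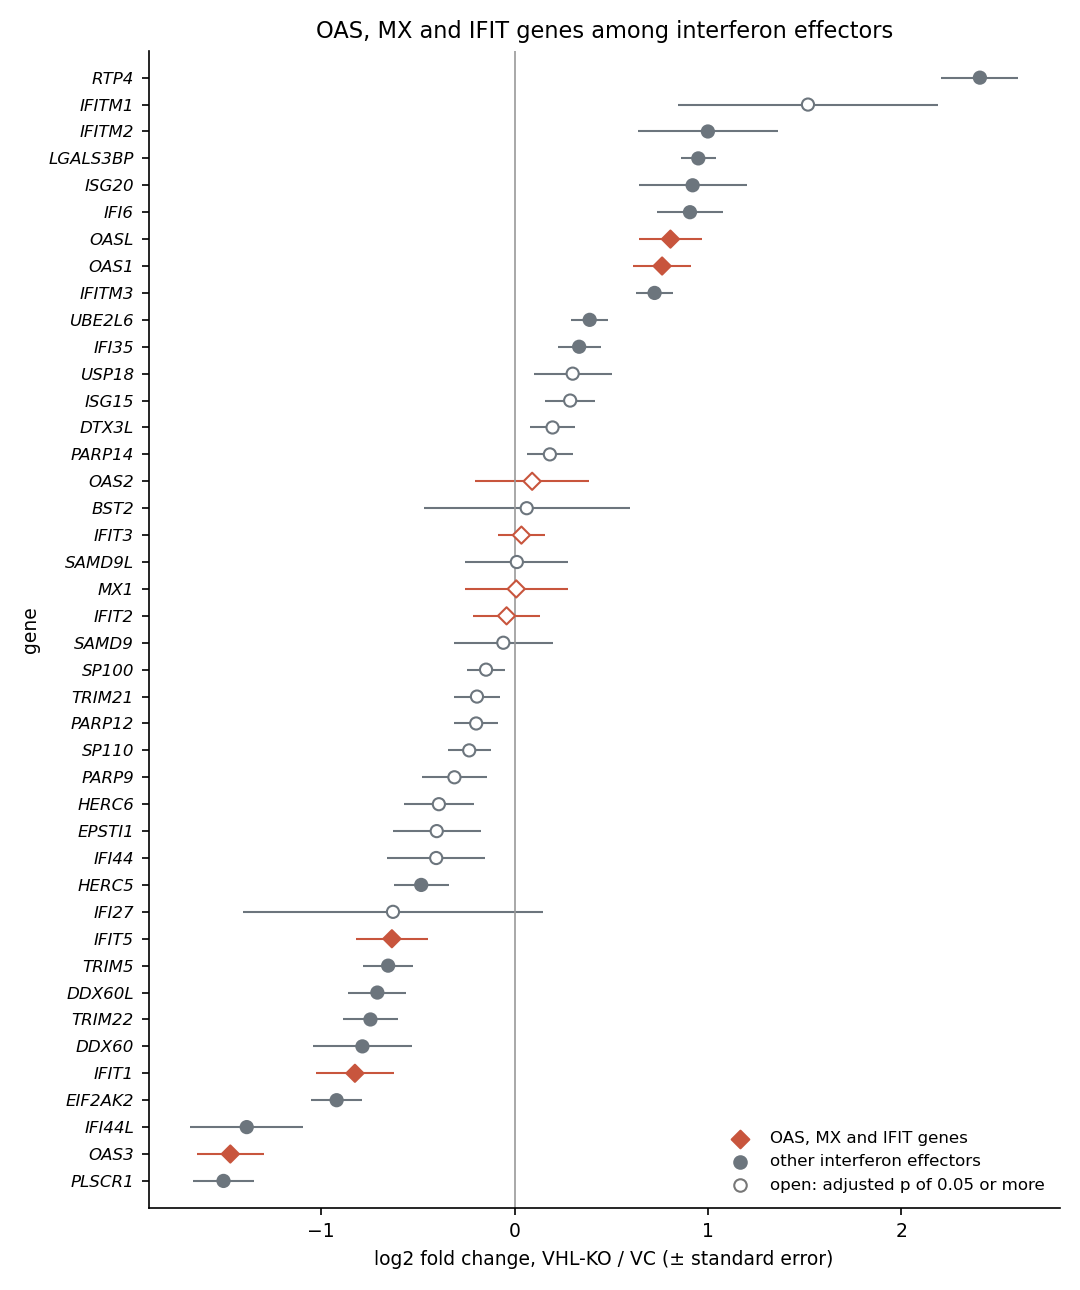
Log2 fold change of VHL-KO over VC (horizontal axis, ± standard error) for the 9 tested OAS, MX and IFIT genes (red diamonds) and 33 other interferon effectors (grey circles), in order of value and filled where the adjusted p was under 0.05. The red genes run from -1.47 for OAS3 to 0.81 for OASL.

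OASL, MX1 and IFIT3 had the highest CPM per kb of the exon union in their families, averaged over both groups, while per kb of the canonical transcript OAS1 stood above OASL. The genes most like these 3 were found by the Euclidean distance of log2 CPM, centred on each gene's mean of the 6 samples, among genes averaging 1 CPM or more. Nearest to OASL were CELSR2, RALGAPA2 and CHST3, at distances of 0.165 to 0.173. MX1 had JAKMIP3, KBTBD7 and C10orf143 nearest (0.141 to 0.279), and IFIT3 had MSI2, NFU1 and NMNAT1 (0.0557 to 0.0964).

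Genes that flank the clusters, here the nearest tested protein-coding genes, did not share one direction with them. Beside the OAS1, OAS3 and OAS2 cluster, PTPN11, at 396 kb, had a log2 fold change of -1.74. RASAL1, at 87.1 kb on the other side, had one of 2.41, and both passed the threshold. P2RX7 (0.21), at 93.6 kb from OASL, did not pass it. Around the MX genes BACE2, at 79.5 kb, fell (-0.52) and RIPK4, at 269 kb, rose (0.96). Around the IFIT cluster CH25H, at 76.4 kb, did not pass the test and SLC16A12, at 8.69 kb from IFIT5, fell (-1.66). The call of SLC16A12 held in 5 of 14 alternatives and was lost when VC replicate 1, 2 or 3 was left out, at -1.45, -1.70 and -1.78, or VHL-KO replicate 1 or 2, at -1.94 and -1.12.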

How the data were processed

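RNA-seq of 3 VC and 3 VHL-KO Caki-1 samples was grouped by genotype and replicate number in the labels. The authors trimmed reads with TrimGalore and Cutadapt, kept those of 20 nt or longer, aligned them with STAR to GRCh38.p13, kept reads mapped to a single location and counted them per gene with HTSeq; the values deposited are this raw count, without normalization, filter or pooling. Single-location mapping can drop reads shared by paralogs. Strandedness, annotation and versions were not given in the sources used here. Here edgeR 4.0.16 (R 4.3.3, TMM factors) was fitted without a block. Its quasi-likelihood F test was two-sided, with Benjamini-Hochberg adjustment over the 17401 genes that reached 10 reads in a sample. Standard errors are the absolute log2 fold change over the square root of F. GENCODE release 44 gave positions, lengths and GC contents, and RefSeq (GRCh38.p14) the promoter windows. Offsets used natural splines with 5 degrees of freedom. DESeq2 1.42.0, other factors, filters, left-out replicates, a replicate block and the offsets were alternatives. Members and lists were chosen with earlier results of these data known. Named were VHL, all members, the 5 largest changes in each direction without overlap among other effectors and all changed genes of other lists except the kidney markers. The 3 likest genes and tested protein-coding neighbours, not all of them, were named as well. Replicates of a group differed beyond sampling noise (chi-square per degree of freedom 6.18 to 32.8).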

Additional observations from a re-analysis of the deposited data

How the results depend on the processing

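OAS1, OAS3, OASL and IFIT1 kept their direction and their side of the threshold under all 15 alternatives, with log2 fold changes of 0.57 to 1.17, -1.74 to -1.34, 0.61 to 0.92 and -1.06 to -0.46. IFIT5 lost its call in 3 of them, without VC replicate 3 and with the offsets with or without the block. The 50 genes followed here leave out MX2, the genes named for likeness and, except for ISG15, those named without a call outside the members. Of their 743 values, 678 kept direction and side, 40 lost and 8 gained a call. The other 17 changed sign, all in genes with no call under TMM factors. The cause of these moves was not tested.

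With library size alone the log2 fold change was -0.10 for OAS2, -0.18 for MX1 and -0.16 for IFIT3, the median of the members was -0.18, and of the other effectors 5 rose and 16 fell with a median of -0.34. With upper quartile factors IFIT2 was at 0.0735 and the medians were 0.12 for the members and -0.0343 for the other effectors. Without a filter beyond 1 count MX1 was at -0.0296 and IFIT3 at -0.0042. With the GC content and length offsets ISG15 was at -0.52, IFIT2 at 0.29, and the medians were 0.29 for the members and -0.0437 for the other effectors. With 1 replicate left out, the value ran from -0.18 to 0.31 for OAS2, from -0.16 to 0.13 for MX1, from -0.15 to 0.10 for IFIT2, from -0.0216 to 0.0985 for IFIT3 and from -0.0818 to 0.10 for the members' median.

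Replicate numbers were treated as not pairing the samples. Deviations of same-numbered samples from their group means correlated by 0.0541, 7.55e-05 and 0.0237. VC replicates 1 and 3 correlated best with the VHL-KO sample of the same number, and VC replicate 2 with VHL-KO replicate 3 (0.0169). Correlations this small do not settle whether the samples were paired. The replicate block moved the genes past the threshold from 10394 to 10284 and no call of the members. Together with the offsets it gave -0.52 for ISG15, 0.29 for IFIT2, 0.29 for the members' median and -0.0437 for the other effectors. Depth limits MX2, OAS2, MX1 and the interferon ligands, each with under 100 reads in every sample, and other low genes such as IFNLR1, IRF9, IL10RB, IFITM2 and ISG20.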
